A study of Mus musculus with 6 samples.

Results

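Matrix metalloproteinases (MMPs), ADAMs, ADAMTS and ADAMTSL proteins and their tissue inhibitors (TIMPs) were examined in mouse embryoid bodies, the aggregates in which embryonic stem cells differentiate. Every probe set annotated with a single symbol of Mmp, Adam, Adamts or Adamtsl followed by a number, or of Timp1 to Timp4, was taken. This gave 124 of the 45101 probe sets on the array, for 70 of 18193 genes: 18 Mmp, 28 Adam, 15 Adamts, 5 Adamtsl and 4 Timp genes. Another 5 probe sets carry several symbols (Adam1a with Mapkapk5, or Adam6a with Adam6b) and were not counted.

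The bodies came from the D3 stem cell line and were sampled at day 10. In the RA group (3 arrays) the bodies held microspheres loaded with retinoic acid, a hormone-like product of vitamin A. In the control group (3 arrays) they held microspheres with the dye CellTracker Red. Microspheres of both groups were coated with gelatin, and all bodies grew in rotary culture without LIF, the cytokine that keeps stem cells undifferentiated. The labels give neither the retinoic acid dose nor the microsphere ratio and rotary speed of a single sample, and do not say that replicates were separate cultures, so p-values measure a spread that may be technical. A single stem cell line was used and whole bodies were measured, so fewer cells of a type and less RNA per cell cannot be told apart.

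MMPs are zinc-dependent enzymes that cut collagens, gelatin, laminins and other matrix proteins. Some are secreted, and the membrane-type MMPs are held at the cell surface. ADAMs are membrane proteins, several of which cut (shed) the outer part of other membrane proteins such as Notch. ADAMTS enzymes are secreted and cut proteoglycans or process procollagens, while ADAMTSL proteins share their accessory domains without the enzyme domain and bind matrix fibres. TIMPs bind and block the active site of these enzymes. In the early embryo this system opens basement membranes when cells migrate, and it remodels the versican-rich matrix of the forming heart.

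The deposited signal was not on a common scale: the mean of each array after trimming 2% from both tails lay between 108 and 191. Values below are log2(signal + 16) after quantile normalization between arrays, called levels here, and differences are RA minus control on that scale. Adding 16 makes fold changes of dim genes look smaller. A level below 5.74, the 40th percentile of all probe sets, is open to background. Of the 70 genes, 43 had a probe set whose mean over the 6 arrays lay above it, and each was represented by its brightest such probe set. Arrays correlated across genes at 0.959 to 0.971 within groups and at 0.879 to 0.901 between groups. For Gapdh, signal of the 3-prime probe set over the 5-prime one, which rises as RNA degrades, was 34.0 on RA array 1, against 3.06 to 4.74 elsewhere. The same ratio for actin was 7.42, 4.35 and 4.90 on RA arrays 1, 2 and 3, all above the 3.46, 3.35 and 4.24 of the control arrays (two-sided exact permutation p = 0.1, the smallest that 3 against 3 arrays can give). The actin ratio thus moved with the group, while the Gapdh ratio stood apart only on RA array 1 (two-sided exact permutation p = 0.6). The part of RNA quality in the differences below was not tested. Markers of several germ layers were read in the bodies. Mean levels in RA and control bodies were 10.70 and 8.28 for Pou5f1 (epiblast), and 10.70 and 13.38 for Afp (visceral endoderm). They were 5.83 and 11.94 for Actc1 (heart muscle), and 9.82 and 7.09 for Stmn2 (neurons). Other neuron genes differed less, with mean levels of 6.88 and 6.49 for Tubb3, and 5.55 and 5.96 for Dcx. Within the visceral endoderm and neural lists, counted below, markers moved in both directions.

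In RA bodies 11 of the 43 tested genes were lower and 1 was higher. The falls included 3 MMPs (Mmp2, Mmp14, Mmp11), 4 ADAMs (Adam12, Adam19, Adam22, Adam10), Adamts1 and Adamts9, and the inhibitors Timp1 and Timp2. The rise was Timp4. A gene counted as changed at an adjusted p below 0.05 (limma, Benjamini-Hochberg over all 13608 genes tested). By this rule 30% of all genes changed, 15.6% lower and 14.3% higher, so the share of changed metalloproteinase and TIMP genes, 27.9%, was near that of all genes, with 25.6% lower and 2.33% higher. Of the lower genes 6 changed at least 2-fold, as did Timp4, against 4.93% lower and 3.04% higher among all genes. The groups' arrays did not overlap for 19 of the 43 genes, against 44% of all genes. The median difference of the 43 genes was -0.07, and that of all genes was 0.01. Without scaling between arrays 6 of the 43 were lower and 4 higher, and the median of all genes was 0.26. Fitted as probe sets, 16 of the 66 kept ones were lower and 2 higher, against 11.1% lower and 11.3% higher among all 27022 kept probe sets. The 27 genes below the filter had levels from 4.06 to 6.80 on single arrays over all their probe sets and were not tested.

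**Figure D1:**
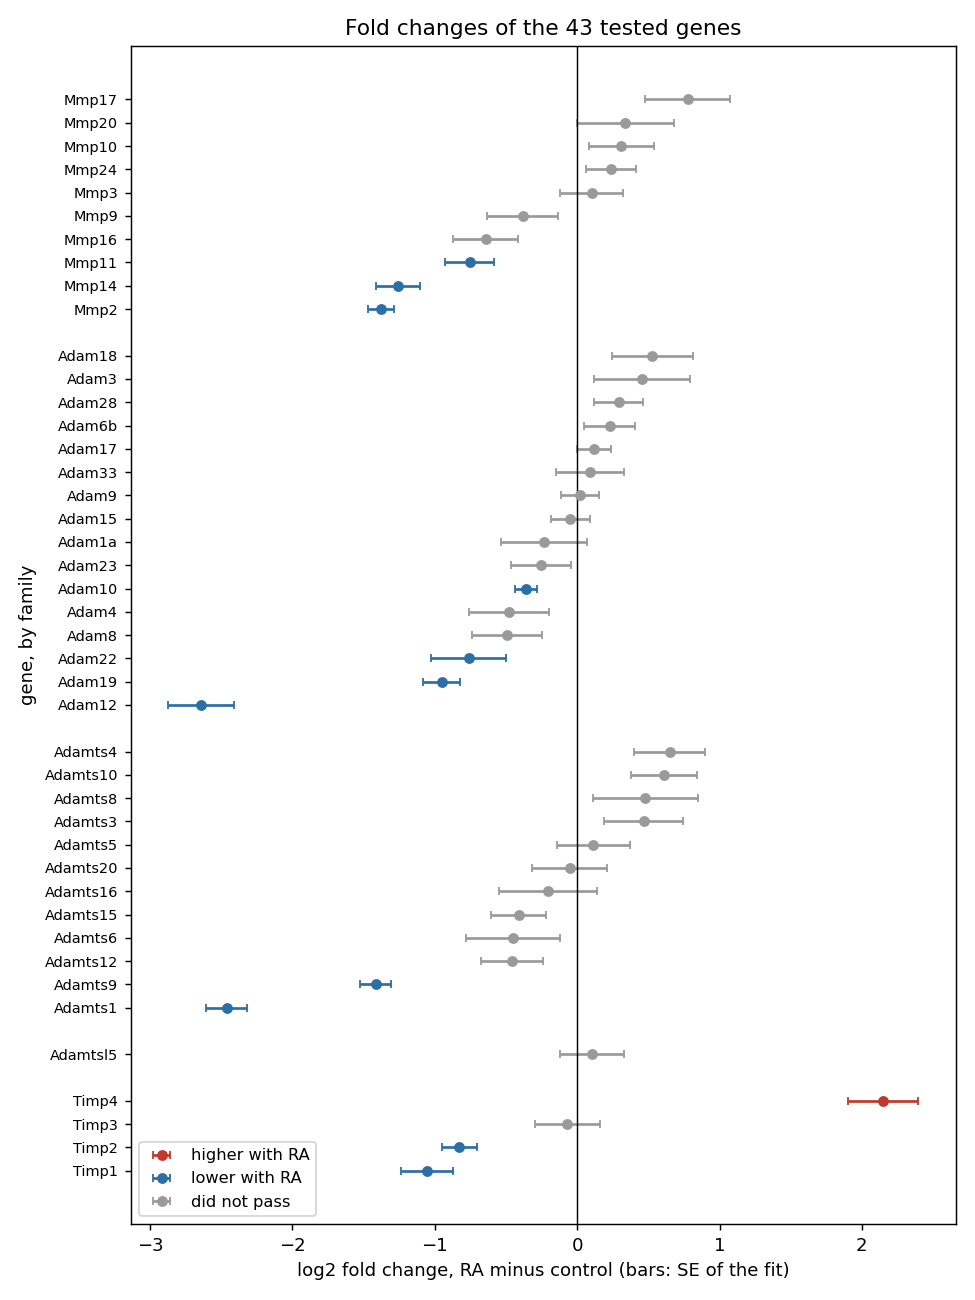
Log2 fold change (RA minus control, x axis) of each of the 43 tested genes, ordered within family, with the SE of the fit. Blue points passed as lower, red as higher and grey did not pass. Adam12 lies farthest left at -2.64 and Timp4 farthest right at 2.15.

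Of 10 tested Mmp genes 3 were lower and 0 higher (median -0.14). The changed share of 30% equals that of all genes tested. The strongest fall was in gelatinase A, Mmp2, which degrades denatured collagen and type IV collagen. Mmp2 had levels of 8.79, 8.88 and 8.87 on RA arrays 1, 2 and 3, against 10.30, 10.11 and 10.26 on the control arrays. All RA arrays lay more than 1 log2 unit below all control arrays, while arrays of a group differed by little. The mean was 8.85 ± 0.05 in RA and 10.22 ± 0.10 in control bodies (SD, n = 3 each), which is 2.60 times lower with RA (limma adjusted p = 8.75e-07). Its second kept probe set was lower as well, by 2.02 times.

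Mmp14 encodes the membrane-type MMP that activates the Mmp2 proenzyme at the cell surface. Mmp14 had levels of 7.63, 8.06 and 8.05 on the RA arrays and 9.23, 8.93 and 9.35 on the control arrays. The groups did not overlap, and RA array 1 was the lowest. The difference was -1.26 ± 0.15 (SE), 2.39 times lower with RA (limma adjusted p = 0.000100). A dimmer kept probe set of Mmp14 had -0.75 ± 0.40 (SE) and did not pass. Mmp11, stromelysin-3, which furin activates inside the cell, had levels of 7.11, 7.21 and 7.56 on the RA arrays and 7.92, 7.96 and 8.26 on the control arrays. Mmp11 was 1.69 times lower with RA (limma adjusted p = 0.00640), and this call was lost without scaling (limma adjusted p = 0.180) and when RA array 1 and control array 3 were both left out (0.0526).

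The other 7 tested MMPs did not pass. The membrane-type Mmp16 had a difference of -0.64 ± 0.23 (SE, limma adjusted p = 0.0541), with RA arrays no higher than 6.24 and control arrays at 6.60 to 6.87. Mmp17, a membrane-type MMP held by a lipid anchor, had 0.78 ± 0.30 (SE, limma adjusted p = 0.0741), with RA arrays at 6.55 to 7.03 and control arrays at 5.43 to 6.39. For both genes the groups did not overlap. A dimmer Mmp16 probe set was 2.66 times lower in the fit of all kept probe sets (limma adjusted p = 0.00876), with its RA mean of 5.29 open to background. Gelatinase B, Mmp9, had levels of 7.07, 6.16 and 6.89 on the RA arrays and 7.14, 7.14 and 6.98 on the control arrays, so the groups overlapped (difference -0.38 ± 0.25, SE). Mmp3, Mmp10, Mmp20 and Mmp24 had differences from 0.10 to 0.34. Collagenases and other MMPs that macrophages, neutrophils or epithelia make (Mmp13, Mmp1a, Mmp1b, Mmp8, Mmp12, Mmp7, Mmp19 and Mmp23) were below the signal filter, with no array above 5.90. In the RefSeq order of protein-coding genes 7 Mmp genes follow each other on chromosome 9 (Mmp13, Mmp12, Mmp1b, Mmp3, Mmp1a, Mmp10 and Mmp8). Of these 7 only Mmp3 and Mmp10 were tested, and neither passed.

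Of 16 tested Adam genes 4 were lower and 0 higher (median -0.14), and meltrins alpha and beta were among the 4. The changed share was 25%, against 30% of all genes tested. Adam12 (meltrin alpha), known from fusing muscle cells and mesenchyme, had levels of 6.13, 6.25 and 7.12 on the RA arrays, against 9.25, 9.17 and 9.01 on the control arrays. RA array 3 stood above the other RA arrays but still far below the controls. Adam12 was 6.24 times lower with RA, the largest fall of the 43 genes (difference -2.64 ± 0.23, SE, limma adjusted p = 7.62e-06). Its second kept probe set fell by less, 2.11 times. Adam19 (meltrin beta), which the mouse heart needs to form its valves and septa, had levels of 7.87, 7.77 and 7.83 on the RA arrays and 8.95, 8.61 and 8.77 on the control arrays. The groups did not overlap and the RA arrays nearly coincided. Adam19 was 1.93 times lower (limma adjusted p = 0.000191), a call lost without scaling (limma adjusted p = 0.0646). Its other kept probe set had -0.29 ± 0.19 (SE) and did not pass.

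Adam10, the sheddase of Notch and of cadherins, fell slightly but evenly. Its levels were 10.03, 10.00 and 10.06 on the RA arrays and 10.35, 10.44 and 10.38 on the control arrays. The difference was -0.36 ± 0.08 (SE, 1.28 times lower, limma adjusted p = 0.00439). It depended on the processing: without scaling it was 0.01 and did not pass, and with the mean of its kept probe sets it was -0.31 (limma adjusted p = 0.0507). Its second kept probe set had -0.26 ± 0.17 (SE) and did not pass. Adam22, a member with no enzyme activity that serves as a synaptic receptor in neurons, had levels of 6.62, 7.03 and 5.94 on the RA arrays and 7.39, 7.30 and 7.19 on the control arrays. It passed narrowly with a difference of -0.76 ± 0.27 (SE, limma adjusted p = 0.0493), and did not pass in the fit of all 27022 kept probe sets (limma adjusted p = 0.0641). Leaving out any single array except RA array 2 ended this call, with differences from -0.83 to -0.47.

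Adam17, the sheddase of tumour necrosis factor and of EGF receptor ligands, did not pass. Its levels were 8.66, 8.39 and 8.63 on the RA arrays and 8.42, 8.41 and 8.50 on the control arrays, a difference of 0.12 ± 0.12 (SE). Adam9 and Adam15 had differences of 0.02 ± 0.13 and -0.05 ± 0.13 (SE). Adam8, known from leukocytes, had -0.50 ± 0.25 (SE, limma adjusted p = 0.159), and its RA arrays all lay below the control arrays. Of the ADAMs known chiefly from testis and sperm, Adam18 had 0.53 ± 0.28 and Adam4 -0.48 ± 0.28 (SE), and neither passed. Their mean levels over the 6 arrays were 6.54 and 6.64. Adam3 and Adam1a lay nearer the filter level, at 5.89 and 5.86, and did not pass either. A further 12 Adam genes, among them Adam2, Adam7, Adam24 and Adam26a, were below the filter and were not tested. Adam1a and Adam1b, and Adam6a and Adam6b, are close copies whose probe sets may read each other.

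**Figure D2:**
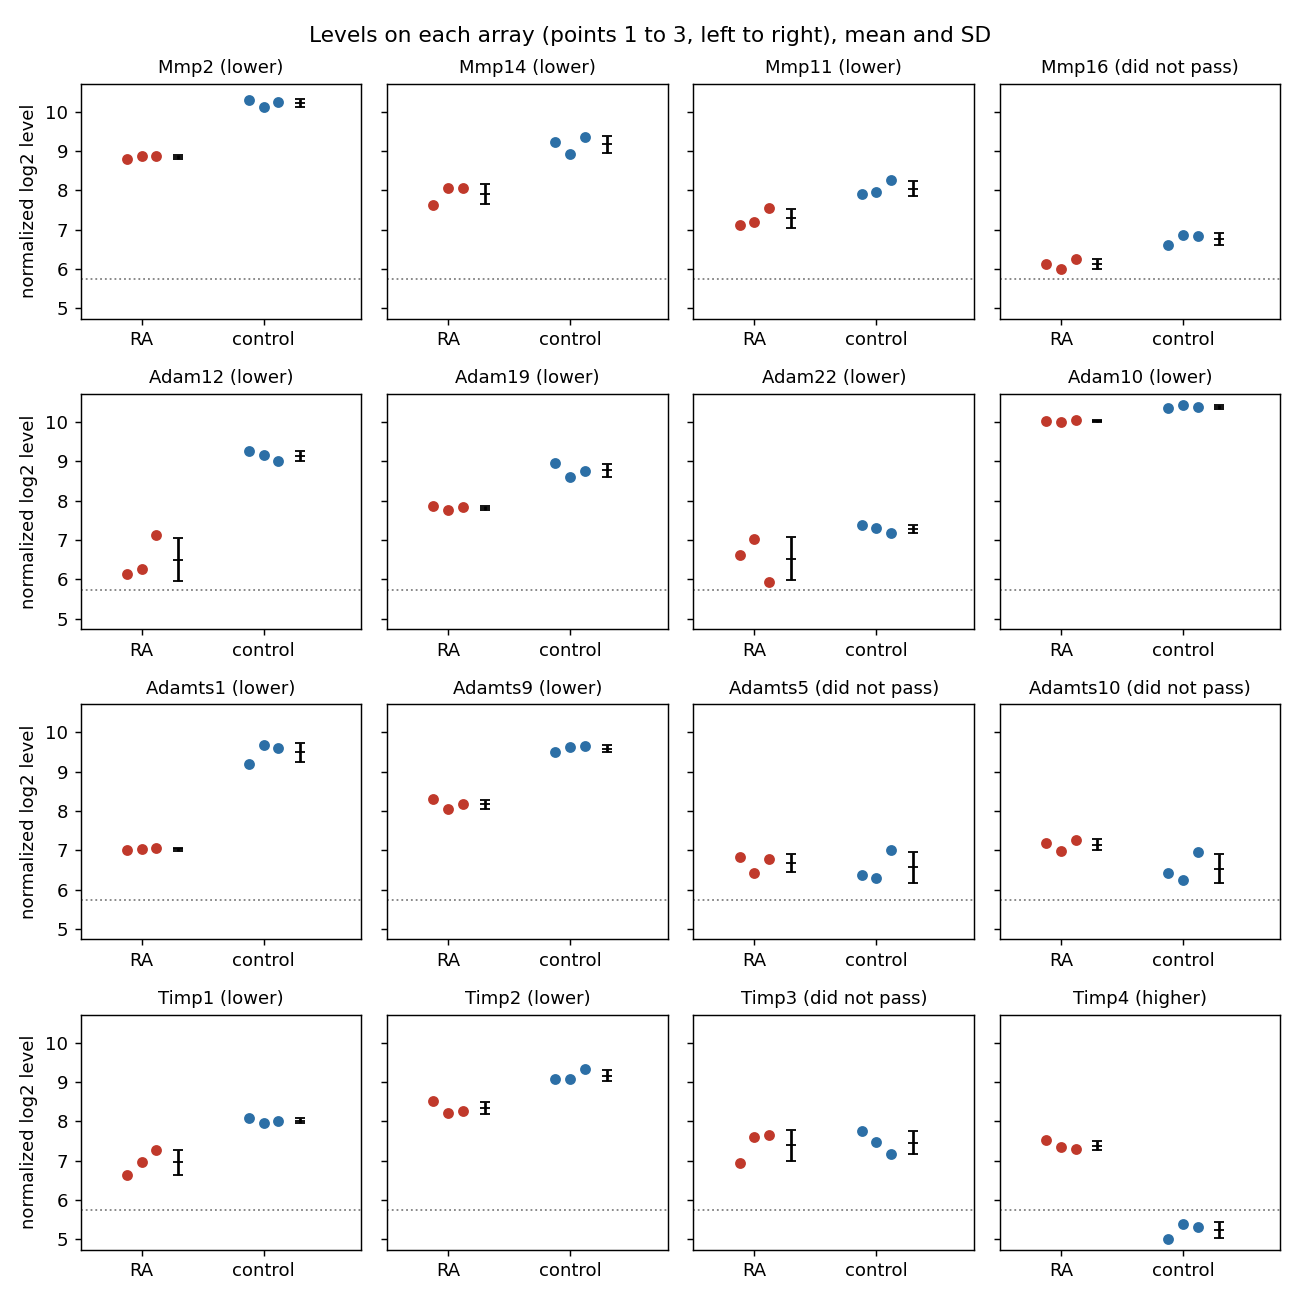
Normalized log2 level (y axis) of 16 genes on each array, with RA arrays in red left of control arrays in blue, and the mean and SD (n = 3) beside the points. The dotted line is the filter level of 5.74. The control arrays of Timp4 lie below that line, and those of Mmp2 lie at 10.11 to 10.30, above all its RA arrays.

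Of 12 tested Adamts genes 2 were lower and 0 higher (median -0.13), and Adamts1 fell most. The changed share was 16.7%, against 30% of all genes tested. Adamts1, which cuts versican, a proteoglycan of the heart jelly and of mesenchyme, had levels of 6.998, 7.028 and 7.059 on the RA arrays, against 9.20, 9.68 and 9.59 on the control arrays. The RA arrays differed from each other by under 0.1, and the groups lay far apart. The mean was 7.03 ± 0.03 in RA and 9.49 ± 0.25 in control bodies (SD, n = 3 each), 5.51 times lower with RA (limma adjusted p = 2.87e-07). Adamts1 has a single probe set on the array.

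Adamts9, another versican-cutting enzyme, was read by 3 kept probe sets that disagreed. The brightest had levels of 8.30, 8.06 and 8.17 on the RA arrays and 9.50, 9.63 and 9.64 on the control arrays, 2.67 times lower with RA (limma adjusted p = 2.54e-06). The second had 9.10, 8.15 and 7.95 on the RA arrays and 7.77, 7.36 and 6.80 on the control arrays. Fitted with all 27022 kept probe sets, it was 2.13 times higher (limma adjusted p = 0.0249). The third had a difference of 0.89 ± 0.31 (SE, limma adjusted p = 0.0597 in that fit). The fall of Adamts9 therefore rests on 1 of 3 probe sets, and their mean gave 0.19 and did not pass.

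Adamts5, an aggrecanase that lies next to Adamts1 on chromosome 16, also had probe sets that differed. The brightest had levels of 6.82, 6.43 and 6.79 on the RA arrays and 6.38, 6.31 and 7.01 on the control arrays, which overlap (difference 0.11 ± 0.26, SE). Another had 5.25, 4.57 and 4.73 on the RA arrays and 6.78, 6.66 and 6.59 on the control arrays. In the fit of all kept probe sets it was 3.55 times lower (limma adjusted p = 0.00156), with its RA levels open to background. The third had -0.66 ± 0.28 (SE) and did not pass, with its RA arrays below all control arrays. The mean of the 3 Adamts5 probe sets passed as lower (-0.79, limma adjusted p = 0.0348). Adamts10, which binds fibrillin, had differences of 0.61 ± 0.23 and -1.02 ± 0.35 (SE) from its probe sets, and neither passed.

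Other ADAMTS genes did not pass. Adamts4, an aggrecanase, had levels of 7.25, 6.68 and 7.28 on the RA arrays and 6.39, 6.12 and 6.74 on the control arrays, a difference of 0.65 ± 0.25 (SE, limma adjusted p = 0.0727). Adamts4 passed as higher without scaling, without control array 3 and without RA array 2 (0.87, 0.83 and 0.84). Adamts15 and Adamts12 had -0.41 ± 0.19 and -0.46 ± 0.22 (SE), with RA arrays below all control arrays in each. Adamts3, an enzyme of procollagen processing, had 0.47 ± 0.28 (SE). The differences of Adamts6, Adamts8, Adamts16 and Adamts20 lay between -0.45 and 0.48. Of the ADAMTSL genes only Adamtsl5 was tested, with 0.11 ± 0.22 (SE). All 3 probe sets of Adamtsl1 were below the filter by their mean over the 6 arrays. The brightest had means of 5.01 in RA and 6.12 in control bodies, and when no filter was used Adamtsl1 passed as lower by it (-1.11 ± 0.34, SE, limma adjusted p = 0.0416). Another had levels of 4.43, 4.17 and 4.28 on the RA arrays and 6.80, 6.62 and 6.39 on the control arrays, so its control arrays all lay above the filter level and its RA arrays below it. The third had means of 4.73 in RA and 5.52 in control bodies, with arrays that overlap.

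**Figure D3:**
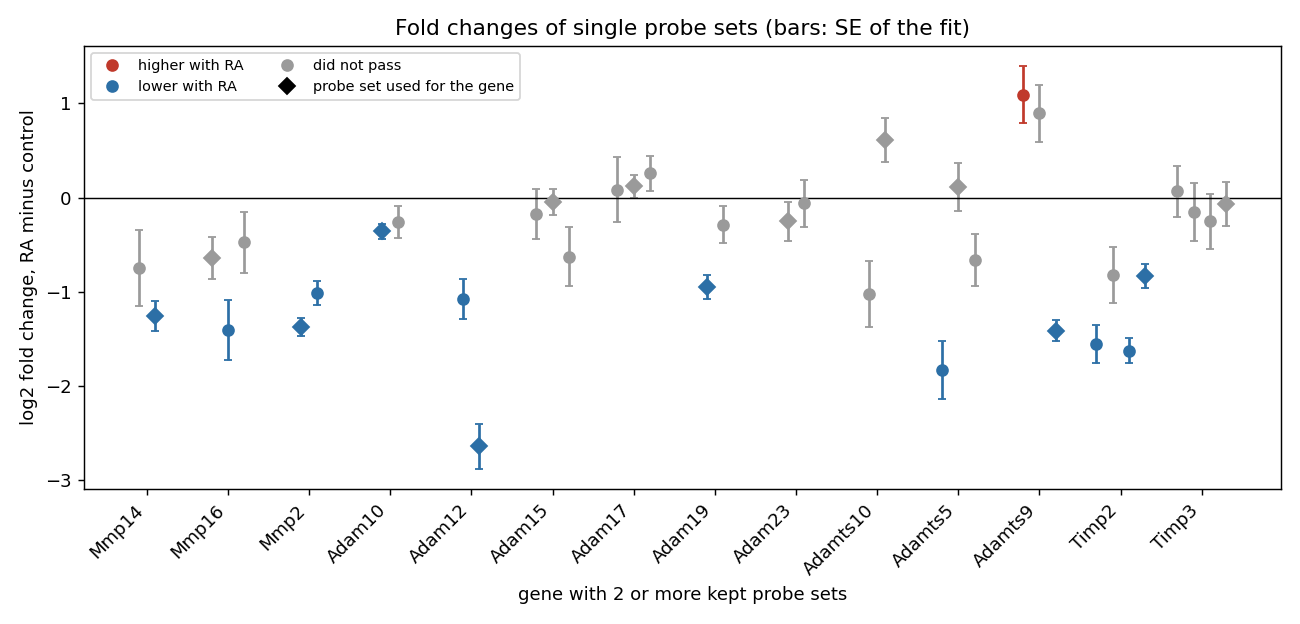
Log2 fold change (RA minus control, y axis, SE of the fit) of each kept probe set of the genes that have 2 or more. Diamonds are the probe sets used for the gene, and colours give the call in the fit of all kept probe sets. The probe sets of Timp2 all lie below 0, while those of Adamts9 fall on both sides, from -1.42 to 1.09.

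Of the 4 inhibitors 2 were lower and 1 higher (median -0.45). This is 75% of only 4 genes, against 30% of all genes tested. Timp1, an inducible inhibitor that also has growth factor activity, had levels of 6.65, 6.98 and 7.28 on the RA arrays and 8.08, 7.97 and 8.02 on the control arrays. The RA arrays spread more widely than the controls and lay below them. Timp1 was 2.08 times lower with RA (difference -1.05 ± 0.18, SE, limma adjusted p = 0.00117). Timp2, which links Mmp14 to the Mmp2 proenzyme during its activation, had levels of 8.52, 8.22 and 8.27 on the RA arrays and 9.09, 9.09 and 9.33 on the control arrays. Timp2 was 1.78 times lower (limma adjusted p = 0.000406), a call lost without scaling (-0.56, limma adjusted p = 0.172). Of its 4 kept probe sets 3 passed as lower, by 1.78 to 3.09 times.

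Timp4, known chiefly from heart and brain, was the rise. Timp4 had levels of 7.52, 7.36 and 7.29 on the RA arrays, against 5.01, 5.40 and 5.31 on the control arrays. All control arrays lay below the filter level, so Timp4 was tested only because of its RA arrays, and its control level is open to background. The mean was 7.39 ± 0.12 in RA and 5.24 ± 0.20 in control bodies (SD, n = 3 each), 4.44 times higher with RA (limma adjusted p = 5.84e-05). Its other probe set lay below the filter, with means of 6.19 in RA and 5.02 in control bodies. Timp3, the inhibitor that binds to matrix and also blocks ADAMs, did not pass. Its levels were 6.94, 7.61 and 7.65 on the RA arrays and 7.75, 7.48 and 7.17 on the control arrays, a difference of -0.07 ± 0.23 (SE), and none of its 4 kept probe sets passed.

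Promoter windows, the 250 bases before the annotated start in RefSeq (GRCm38.p6), were read for 41 of the 70 genes and for 10 of the 12 that changed. They are shown for Timp4, for the falling Timp1, Timp2, Mmp14 and Adamts1, and for the stromelysin Mmp10, which did not pass. Capitals mark GC boxes (GGGCGG on either strand) and the AP-1 motif (TGANTCA, which reads the same on both strands).
Timp4, chr6:115252206-115252455, minus strand: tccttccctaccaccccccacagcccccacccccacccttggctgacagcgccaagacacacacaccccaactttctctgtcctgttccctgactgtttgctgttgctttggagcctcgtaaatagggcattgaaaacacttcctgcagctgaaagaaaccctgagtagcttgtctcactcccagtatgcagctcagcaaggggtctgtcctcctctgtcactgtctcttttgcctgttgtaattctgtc
Timp1, chrX:20869916-20870165, plus strand: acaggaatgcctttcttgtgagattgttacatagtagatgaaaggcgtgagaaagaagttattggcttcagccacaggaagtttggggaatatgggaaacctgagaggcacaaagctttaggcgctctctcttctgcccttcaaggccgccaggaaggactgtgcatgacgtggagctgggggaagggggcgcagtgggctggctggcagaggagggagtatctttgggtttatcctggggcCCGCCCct
Timp2, chr11:118355412-118355661, minus strand: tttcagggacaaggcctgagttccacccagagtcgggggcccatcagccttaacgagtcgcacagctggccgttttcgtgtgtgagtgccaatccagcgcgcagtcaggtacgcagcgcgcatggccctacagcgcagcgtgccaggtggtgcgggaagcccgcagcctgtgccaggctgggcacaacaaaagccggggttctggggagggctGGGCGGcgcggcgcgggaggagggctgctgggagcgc
Mmp14, chr14:54431348-54431597, plus strand: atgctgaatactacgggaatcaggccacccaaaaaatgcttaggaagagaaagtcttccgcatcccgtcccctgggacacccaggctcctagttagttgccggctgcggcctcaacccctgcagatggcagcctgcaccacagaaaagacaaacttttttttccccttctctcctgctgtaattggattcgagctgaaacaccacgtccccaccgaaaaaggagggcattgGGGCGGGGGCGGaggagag
Adamts1, chr16:85803114-85803363, minus strand: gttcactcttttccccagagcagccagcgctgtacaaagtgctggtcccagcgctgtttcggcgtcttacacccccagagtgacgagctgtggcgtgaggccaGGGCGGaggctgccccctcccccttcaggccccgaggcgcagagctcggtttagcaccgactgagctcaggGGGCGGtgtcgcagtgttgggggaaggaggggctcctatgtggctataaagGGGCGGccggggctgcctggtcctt
Mmp10, chr9:7502092-7502341, plus strand: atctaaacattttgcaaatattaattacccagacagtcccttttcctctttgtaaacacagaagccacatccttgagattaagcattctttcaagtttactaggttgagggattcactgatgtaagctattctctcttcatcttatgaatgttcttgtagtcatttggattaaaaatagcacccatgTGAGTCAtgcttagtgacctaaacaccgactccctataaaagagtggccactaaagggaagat
A GC box, the motif of Sp1-type factors, was present in the windows of 19 of the 41 genes (46.3%), among them 7 of the 9 falling genes that have a window, against 35.4% of the windows of all 27025 genes. The Timp4 window held none. In Timp1 and Timp2 the GC box begins 8 and 37 bases before the start, and the Adamts1 window holds 3 GC boxes. The AP-1 motif, long known from collagenase and stromelysin promoters, was present in 10 of the 41 genes, against 7.82% of all genes. Of these 10 genes 8 are Mmp genes on chromosome 9, such as Mmp10, where the motif begins 63 bases before the start. Of the 10, 4 were tested and 1, Adam19, was lower. The retinoid half-site AGGTCA, on either strand, was in 9 of the 41 genes and in 15.8% of all genes, and Adam19 and Adam22 were the changed genes that held it. These matches describe letters and no binding.

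Genes that activate, anchor or modify these enzymes moved in both directions. Of 17 tested genes 3 were higher with RA and 5 lower (median difference -0.10), against 14.3% higher and 15.6% lower among all genes. Reck, a membrane-anchored inhibitor of MMPs, had levels of 7.96, 7.94 and 7.95 on the RA arrays and 8.85, 8.85 and 8.77 on the control arrays, 1.83 times lower (limma adjusted p = 0.000133). Cd151, a tetraspanin that binds Mmp14, was 1.87 times lower. Sh3pxd2a, the scaffold of matrix-degrading cell protrusions, was 1.72 times lower, and the proprotein convertase gene Pcsk5 and the O-fucosyltransferase gene Pofut2 were 1.75 and 1.32 times lower. The 3 rises were all tetraspanins that escort Adam10 to the cell surface: Tspan5 was 2.89 times higher (limma adjusted p = 2.30e-05), Tspan33 2.02 times and Tspan14 1.34 times. The arrays of the groups overlapped for Tspan33, at 6.81 to 7.78 in RA and 5.89 to 6.85 in control bodies. Of the same group of tetraspanins, Tspan15 and Tspan17 had differences of 0.56 ± 0.34 and 0.54 ± 0.24 (SE) and did not pass. Furin, which activates Mmp11, Mmp14 and many ADAMs, had -0.26 ± 0.12 (SE) and did not pass. Without scaling 2 of these genes were higher and 0 lower. The rises numbered 1 without control array 2 or without RA array 3, and with the mean of a gene's kept probe sets 3 genes were lower.

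The plasminogen system, a serine protease cascade that works beside MMPs, had 4 of 7 tested genes lower and 0 higher (median -0.95). Among all genes tested 15.6% were lower and 14.3% higher. Serpinf2, the plasmin inhibitor, had levels of 6.35, 6.29 and 5.98 on the RA arrays and 9.29, 9.41 and 9.49 on the control arrays, 9.13 times lower (limma adjusted p = 5.68e-08). The plasminogen-binding annexin Anxa2 was 2.70 times lower and the plasminogen receptor gene Plgrkt 1.94 times lower. A2m, alpha-2-macroglobulin, which traps proteinases of every class, was 2.18 times lower. Plat, tissue plasminogen activator, had -0.14 ± 0.11 and Plaur, the urokinase receptor, 0.17 ± 0.19 (SE), and neither passed. Among procollagen-processing and related metalloproteinase genes 2 of 5 tested were lower and 0 higher (median -0.03). Pcolce, the enhancer of procollagen C-proteinase, was 5.54 times lower (limma adjusted p = 3.67e-08), and Bmp1, that proteinase, was 1.84 times lower (limma adjusted p = 0.00996). The call of Bmp1 was lost without scaling, with the mean of its kept probe sets (-0.10) and with RA array 1 and control array 3 both left out, and Pcolce2 and Pappa had 0.59 ± 0.41 and 0.45 ± 0.30 (SE) and did not pass.

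**Figure D4:**
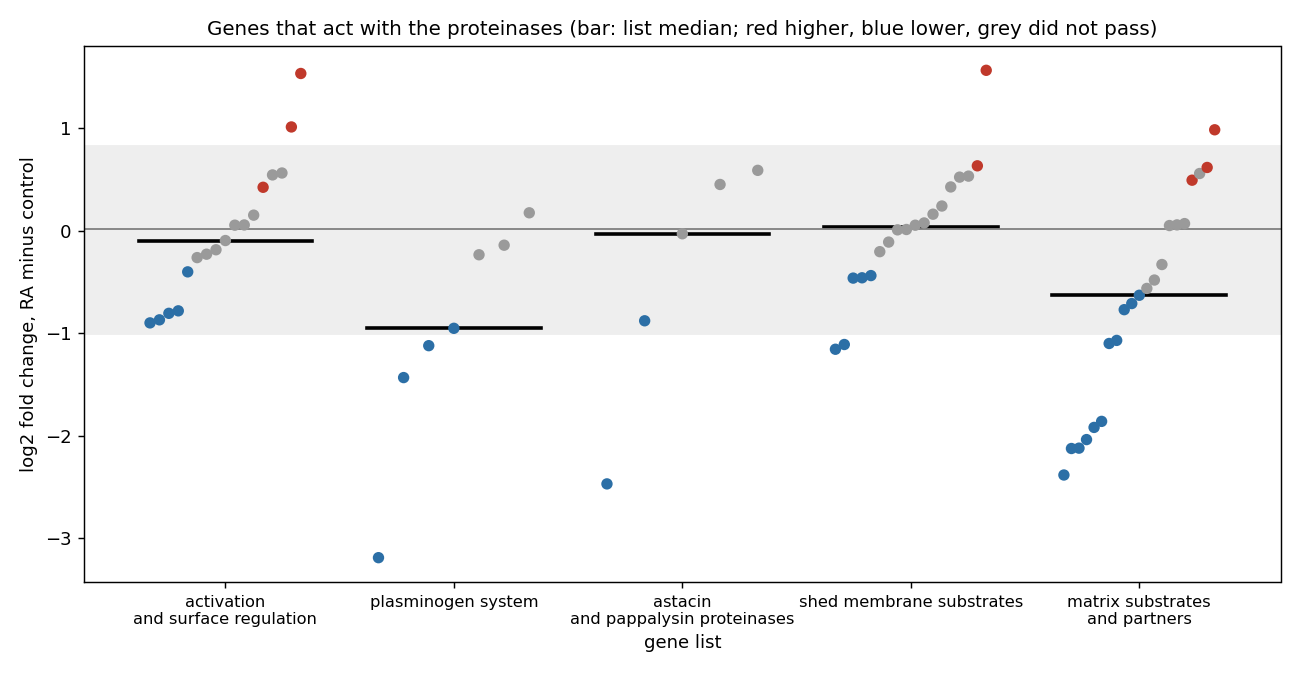
Log2 fold change (RA minus control, y axis) of the tested genes of 5 lists of genes that act with these enzymes. Black bars are list medians, the grey line is the median of all genes and the shaded band spans the 5th to 95th percentiles of all genes (-1.01 to 0.83). The plasminogen list has 0 genes that passed as higher, and Serpinf2 lies lowest at -3.19.

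Of the matrix proteins that these enzymes cut or bind, 11 of 21 tested genes fell and 3 rose (median -0.63). Among all genes tested 15.6% fell and 14.3% rose. Versican, Vcan, the substrate of Adamts1 and Adamts9, had levels of 9.03, 9.05 and 9.15 on the RA arrays and 11.34, 11.03 and 11.22 on the control arrays, 4.35 times lower (limma adjusted p = 3.67e-08). The fibrillar collagen genes Col3a1 and Col1a2 were 5.22 and 4.36 times lower, and fibronectin, Fn1, was 3.63 times lower. The 3 rises were the basement membrane collagens Col4a1 (1.53 times) and Col4a2 (1.41 times) and the cartilage collagen Col2a1 (1.98 times). Among membrane proteins that ADAMs shed, 5 of 18 tested genes fell and 2 rose (median 0.03), beside the same 15.6% and 14.3% of all genes. Prnp and Cd44, the prion protein and the hyaluronan receptor, were 2.16 and 2.23 times lower, and App was 1.38 times lower. Cdh1 (E-cadherin), which Adam10 sheds, was 2.96 times higher, and the Notch ligand gene Jag1 was 1.55 times higher. Notch1 and Notch2 had differences of -0.11 ± 0.13 and 0.07 ± 0.15 (SE) and did not pass. Without scaling 7 of the matrix list and 2 of the shed list were lower.

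Marker lists of other cells in the bodies also differed between the groups. Among all genes tested 15.6% were lower and 14.3% higher. Some lists share genes, so their counts are not independent. Col1a1, Col1a2 and Col3a1 are in the matrix and mesenchyme lists, and Cdh1 is in the shed and epiblast lists. Col4a1, Col4a2 and Sparc are in the matrix and parietal endoderm lists. Of 12 mesenchyme markers 11 were lower and 0 higher with RA, and their summed normalized signal was 3989 to 4408 on the RA arrays and 22098 to 25620 on the control arrays. Of 10 heart muscle markers 9 were lower and 0 higher, with summed signals of 564 to 685 in RA and 12837 to 19430 in control bodies. Of 9 tested macrophage markers 6 were lower and of 7 tested endothelial markers 5 were lower, with 0 higher in either list. Summed over all listed markers, macrophage signal was 726 to 839 in RA and 1227 to 1800 in control bodies, and endothelial signal was 702 to 881 in RA and 1642 to 1767 in control bodies. All 8 epiblast markers were higher, at 15358 to 15953 in RA and 2641 to 2995 in control bodies. The heart muscle markers Myh6, Tnnt2, Tnni1, Tnni3 and Ryr2 had RA means of 4.70 to 5.48, below the filter level and open to background. So had some macrophage and endothelial markers, such as C1qb (5.01) and Cldn5 (4.89). Among the rising markers, Foxd3 and Zic2 (epiblast), Sox1 (neural) and Amn (visceral endoderm) had control means of 4.87 to 5.64. These control means also lay below the filter level and are open to background. The part of these cell types in the falls and in the rise of Timp4 was not tested. For visceral endoderm 5 of 9 were higher and 4 lower, but summed signal was lower, at 9833 to 10922 in RA and 23783.5 to 25998.5 in control bodies. For parietal endoderm 6 of 9 were higher and 1 lower, at 11587 to 12456 in RA and 9547 to 10919 in control bodies. Of 9 tested neural markers 4 were higher and 1 lower, at 4128 to 4817 in RA and 1579 to 1805 in control bodies. For spermatogenic cells 1 of 7 tested, Sycp3, was higher, and the other 6 did not pass. Their summed signal with Sycp3 was 705 to 824 in RA and 394 to 474 in control bodies. Sycp3 itself had mean levels of 8.06 in RA and 6.14 in control bodies.

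Adam19 and Timp2 lie on chromosome 11, whose 1116 tested genes had a median difference of -0.20, with 28.7% lower and 6.45% higher. The medians of the other chromosomes that carry these genes ranged from -0.0027 to 0.09. Without scaling both calls were lost, as given above, and the part of chromosome 11 in them was not tested. The lower list and marker genes Serpinf2, Col1a1, Sparc, Cd68, Myl7 and Myl4 also lie on chromosome 11. So do the list genes Rhbdf1 and Sh3pxd2b, which did not pass. The part of the chromosome in these results was not tested either.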

How the data were processed

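Per the labels, biotin-labelled cRNA made from total RNA was read on Affymetrix mouse arrays, 1 for each of 6 samples, and CEL and CHP files came from GCOS with its defaults, in a version not given in the sources used here. The deposited values are a linear intensity per probe set. Groups came from the sample titles. Precision is limited by 3 arrays per group, and no detection calls were used.

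The 64 control probe sets were left out. GEO's platform annotation named 34945 probe sets with 1 symbol, 932 with several and 9160 with none, and all 70 genes matched RefSeq GRCm38.p6, which gave chromosomes, gene order and promoter windows. Probe sets (27022) with a mean above the 40th percentile were kept, and the brightest single-symbol one represented each of 13608 genes. limma 3.58.1 in R 4.3.3 (quantile normalization, lmFit, eBayes with a trend, two-sided, no covariates) was fitted on all genes, and again on all kept probe sets. The procedure was tested on simulated data in which a smaller share of genes changed than here and the arrays had a common scale. That test does not show how well the procedure works with the changes and scaling of these data. Alternatives covered scaling, pseudocount, filter, probe set choice, variance trend, replicate block and left-out arrays.

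The genes, lists and tests were chosen with earlier results of these data known, and promoter motifs after the fold changes were seen. The rule named every changed gene, all Timp genes, in each family the 3 next by adjusted p, genes whose probe sets differ in call, and up to 4 genes per list by p. Other genes are named for their role after their values were seen.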

Additional observations from a re-analysis of the deposited data

How the results depend on the processing

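The falls of Mmp2, Mmp14, Adam12, Adamts1 and Timp1 passed in all 16 alternatives, and the rise of Timp4 in all but the filter at the 60th percentile, where Timp4 was not tested. Without scaling 4 genes were higher and 6 lower, and 6 probe sets higher and 10 lower, against 1, 11, 2 and 16. In that setting 72.9% of all calls were higher, against 47.8%, Adam10 turned to 0.0149 and Timp3 to 0.122, and Adamts10 and Mmp17 passed as higher. With the filter at the 60th percentile 0 genes and 1 probe set were higher, and without the variance trend 1 probe set was higher. With RA array 1 and control array 3 both left out, chosen after seeing the data, 3 genes were higher, Adamtsl5 turned to -0.0273 and Timp3 to 0.0146. Leaving out each array in turn gave 1 to 3 genes higher and 10 to 11 lower, and 1 to 3 probe sets higher and 16 to 19 lower. Adamts10 and Adamts4 were the added rises without control array 3, and Adamts4 without RA array 2. The probe set count fell to 1 higher without control array 2 or RA array 1. Timp3 ranged from -0.221 to 0.163 there, above 0 without control array 1 (0.0728) or RA array 1, and Adamts5 from -0.0162, without control array 2, to 0.342. With the mean of a gene's kept probe sets Adamts10 turned to -0.205, Adamts5 to -0.794 and Adamts9 to 0.190. Mmp16 passed as lower there and without the variance trend (-0.84 and -0.64). Same-numbered samples did not deviate together (correlations -0.0853, -0.0139 and -0.0274), and with the replicate number as a block 1 gene was higher and 11 lower, and 2 probe sets higher and 18 lower. The causes of these changes were not tested. Signals near the filter level limit what can be said of dim genes.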
